A study of Arabidopsis thaliana with 24 samples.

Results

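Cytosine methylation in sperm nuclei of the ago5 mutant of Arabidopsis thaliana (thale cress, ecotype Col-0) was compared with that in sperm nuclei of the wild type, which the labels call wt21. These groups make up 4 of the 24 samples of the series, 2 replicates of each genotype. They were chosen by their labels, and every feature of the deposited table with at least 10 cytosine calls in both groups entered the comparison. Pollen came from soil-grown plants 35 days after germination under 16 h light and 8 h dark, and 50000 nuclei were sorted per replicate. The labels name the genotypes only as ago5 and wt21, without an allele, and do not say how many plants gave a replicate. Stem-cell nuclei of both genotypes, sorted for the red fluorescent protein mCherry from seedlings 7 days after germination, are used below as a second look at the same genotypes from separate libraries. The sperm pools of the ago9 and ago59 mutants (ago59 joins both mutant names, and its alleles are not spelled out) are given beside single features. They share the wt21 pool with the ago5 comparison.

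Plants methylate cytosines in 3 sequence contexts, CG, CHG and CHH, where H is A, C or T. CG methylation is copied at replication by MET1, CHG methylation is kept by CMT3 together with the histone methyltransferases SUVH4, SUVH5 and SUVH6, and CHH methylation is placed by CMT2 and, guided by small RNAs, by DRM2. ARGONAUTE proteins carry small RNAs to their targets, and AGO4, AGO6 and AGO9 are the family members best known for guiding DRM2. AGO5 belongs to the branch of AGO1 and AGO10, prefers small RNAs that begin with cytosine, and is found in germline cells and the shoot apical meristem. Transposable elements carry most CHG and CHH methylation of the genome, densest in the pericentromeres, whereas many genes carry CG methylation alone in their bodies.

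Each genotype and context was deposited as a single pool, so there was no replicate spread to hold a difference against. The values after ± are half-widths of 95% intervals that cover counting error only, and they are too narrow where several calls came from one read. A level is the percentage of calls that were methylated, and differences are ago5 minus wt21 in percentage points. The ago5 sperm pool held 219889638 calls and the wt21 sperm pool 225445567. The pools were not sampled alike everywhere. When transposable elements were split by GC content into 5 equal classes, the ago5 pool held 69.0% as many CHH calls as wt21 in the most AT-rich class and 94.9% in the most GC-rich. Chloroplast features, often used to gauge unconverted cytosines because plastid DNA is little methylated, read 1.34% in CHH in ago5 (Wilson 95% interval 1.18 to 1.52%) and 1.37% in wt21 (1.22 to 1.52%). They held 0.0125% and 0.015% of the CHH calls in sperm, against 4.51% and 4.40% in the stem-cell pools of ago5 and wt21. The genotype itself could not be checked from methylation calls, which carry no measure of expression.

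Single elements show what the comparison looks like at the level of sequence, and 6 that lay among the largest changes follow on their own strand in the reference assembly (RefSeq, TAIR10.1), with the cytosine sites of the affected context in capitals. The first pair lost CG methylation in ago5 sperm, the next pair gained it, and the last pair lost CHG methylation.
AT3TE23210: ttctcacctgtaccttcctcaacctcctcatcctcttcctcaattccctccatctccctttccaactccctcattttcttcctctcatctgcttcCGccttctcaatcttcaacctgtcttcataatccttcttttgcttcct
AT5TE57585: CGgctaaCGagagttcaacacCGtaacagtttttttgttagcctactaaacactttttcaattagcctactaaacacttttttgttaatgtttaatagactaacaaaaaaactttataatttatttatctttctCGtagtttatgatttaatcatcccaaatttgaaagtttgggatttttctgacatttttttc
AT1TE32815: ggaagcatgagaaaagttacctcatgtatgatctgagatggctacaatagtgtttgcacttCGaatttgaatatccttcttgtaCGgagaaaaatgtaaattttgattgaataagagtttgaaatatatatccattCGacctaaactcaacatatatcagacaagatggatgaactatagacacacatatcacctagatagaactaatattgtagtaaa
AT1TE40005: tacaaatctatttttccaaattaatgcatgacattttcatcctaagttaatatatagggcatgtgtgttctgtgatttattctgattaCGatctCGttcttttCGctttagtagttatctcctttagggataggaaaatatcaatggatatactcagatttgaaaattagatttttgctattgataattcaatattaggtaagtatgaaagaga
AT2TE17915: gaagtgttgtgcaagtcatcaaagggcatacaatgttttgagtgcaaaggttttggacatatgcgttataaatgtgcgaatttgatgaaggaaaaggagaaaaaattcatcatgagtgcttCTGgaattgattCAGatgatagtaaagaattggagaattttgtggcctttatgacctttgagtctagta
AT1TE73160: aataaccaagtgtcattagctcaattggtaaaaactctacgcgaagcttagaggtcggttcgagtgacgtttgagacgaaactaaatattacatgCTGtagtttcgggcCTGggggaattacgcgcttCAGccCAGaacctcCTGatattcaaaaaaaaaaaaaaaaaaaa
These elements are short, between 143 and 219 bp, and hold from 1 to 5 sites of the context on the printed strand, so a whole element can change level through a few cytosines. AT3TE23210 (chr3:5523881-5524023, + strand) lies in coding sequence of AT3G16290 and has 1 CG site. AT5TE57585 (chr5:15949446-15949640, − strand), AT1TE32815 (chr1:10167602-10167820, + strand) and AT1TE40005 (chr1:12300969-12301182, − strand) overlap no gene and lie 24, 897 and 143 bp from the nearest. AT2TE17915 (chr2:4251551-4251740, + strand) lies in pericentromeric sequence within AT2G10802, which RefSeq lists as a pseudogene, and AT1TE73160 (chr1:22162432-22162602, + strand) lies 6 bp from AT1G60095.

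The broadest difference between the pools was in the CHG context of transposable elements. Over 15687 elements the mean CHG level was 30.7% in wt21 and 28.3% in ago5 sperm, a difference of -2.39 ± 0.141 points. The difference had the same sign on each of the 5 chromosomes and lay between -2.65 points on chromosome 4 and -1.94 points on chromosome 1. Transposable element genes, the annotated coding units of transposons, differed by -3.69 ± 0.150 points from a wt21 level of 50.4%. Pseudogenes differed by -1.30 ± 0.318 points from 17.1%, and genes by -0.231 ± 0.0260 points from 3.42%. Divided by the level in wt21, the differences lay close together, at -6.74% in genes, -7.33% in transposable element genes, -7.62% in pseudogenes and -7.79% in transposable elements.

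CG and CHH methylation of the same classes differed less in points, but outside genes CHH differed more than CHG as a percentage of its low wt21 level. Mean CG levels of transposable elements were 64.6% in wt21 and 64.1% in ago5 (-0.504 ± 0.105 points), and in transposable element genes both pools read 90.5 to 90.6%. In CHH the elements read 5.40% in wt21 and 4.82% in ago5, a difference of -0.575 ± 0.0517 points. That is -10.7% of the wt21 level, with -10.1% in transposable element genes, -14.2% in pseudogenes and -6.01% in genes. In stem-cell nuclei the transposable elements differed by -0.697 ± 0.128 points in CHG, by -0.311 ± 0.115 in CG and by -0.0765 ± 0.0473 in CHH. Over the 14971 elements with enough CHG calls in all 4 sperm pools, CHG methylation averaged 28.7% in the ago5 pool beside 31.2% in wt21, while ago9 was at 30.5% and ago59 at 28.3%.

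**Figure D1:**
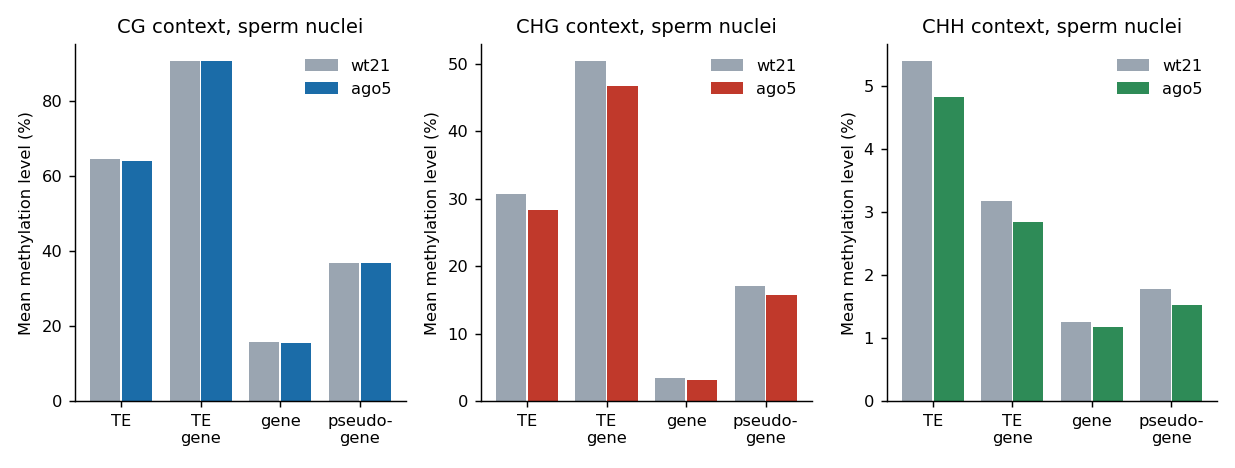
Mean methylation level in percent (y axis) of transposable elements (TE), transposable element genes, genes and pseudogenes in wt21 (grey) and ago5 (coloured) sperm nuclei, in CG, CHG and CHH. Each bar is 1 pool and has no replicate error; the widest gap in points is in CHG of transposable element genes, at 50.4% against 46.7%.

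The CHG difference in points followed the level that an element carried. When elements were sorted by their level in the wt21 stem-cell pool, which is not among the pools compared, the sperm difference was -0.200 ± 0.181 points at 0 to 5%, -2.42 ± 0.537 at 5 to 20%, -3.08 ± 0.410 at 20 to 40%, -3.83 ± 0.229 at 40 to 60% and -4.49 ± 0.719 at 60 to 80%. The highest class, with 81 elements, read -5.98 ± 3.23 points. As a share of the wt21 sperm level, the classes above 20% differed by -7.14 to -8.90%, the 5 to 20% class by -12.7% and the lowest class by -9.26%.

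The difference also varied with place in the chromosome. Pericentromeric elements differed by -3.48 ± 0.222 points from a level of 46.3%, and elements of the chromosome arms by -1.67 ± 0.183 points from 20.4%. As shares of the wt21 level these are -7.51 and -8.21%. The median difference was -3.34 points in pericentromeres and 0 in the arms. The difference was -4.27 ± 0.433 points within 0.5 Mb of the pericentromere centre and -1.03 ± 0.486 points at 6 to 8 Mb. At 12 to 20 Mb it was -1.42 ± 0.640 points, or -12.8% of the wt21 level. Long elements of the arms resembled pericentromeric ones, since arm elements over 4 kb carried 49.9% CHG methylation in wt21 and differed by -3.84 ± 0.342 points. In stem-cell nuclei the difference within 0.5 Mb of the centre was -1.07 ± 0.412 points.

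**Figure D2:**
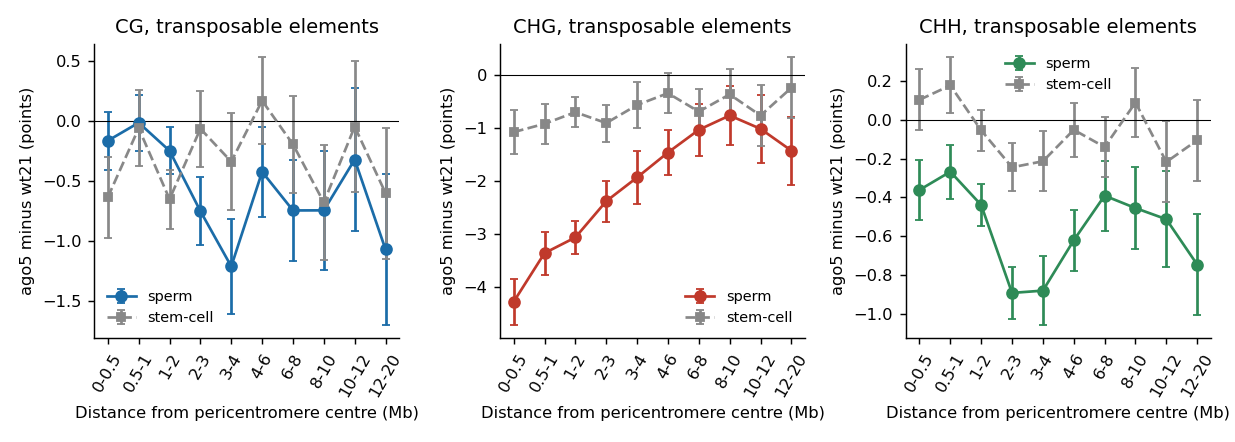
Mean difference in methylation level of transposable elements, ago5 minus wt21 in percentage points (y axis), by distance from the pericentromere centre in Mb (x axis), in sperm (coloured circles) and stem-cell nuclei (grey squares). Bars are 95% counting intervals. The sperm CHG difference goes from -4.27 points in the innermost class to -0.760 points at 8 to 10 Mb, and is -1.42 points at 12 to 20 Mb. The stem-cell CHG values stay between -1.07 and -0.238 points.

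**Figure D3:**
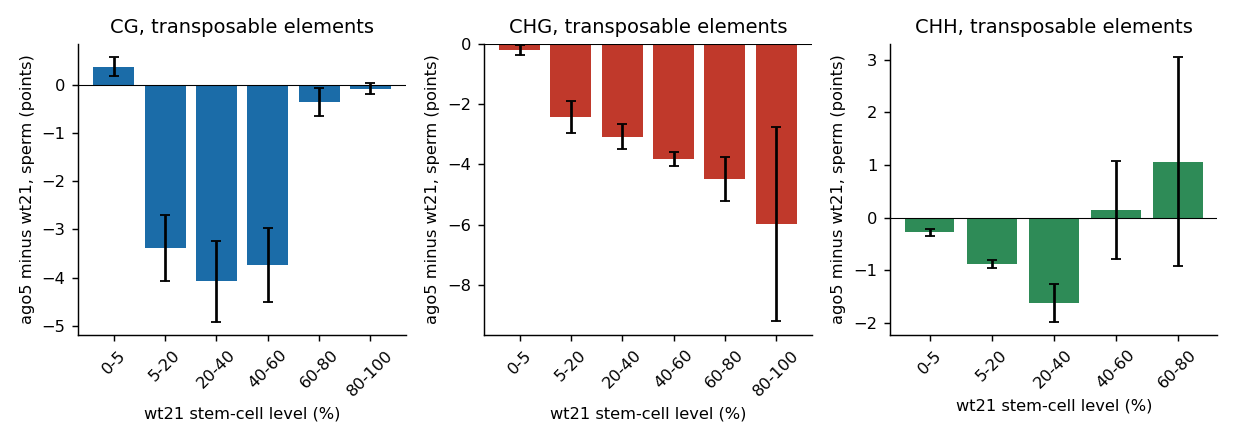
Mean sperm difference of transposable elements, ago5 minus wt21 in percentage points (y axis), by the level of the element in wt21 stem-cell nuclei in percent (x axis; classes of 50 or more elements). Bars have 95% counting intervals; CHG differences grow with level, CG differences are at -3.39 to -4.07 points between 5 and 60% and near 0 at the ends.

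The CHG difference was about as large where the pools had similar depth. Among elements whose calls in the smaller pool were at least 0.8 times those in the larger, the mean CHG difference was -2.36 ± 0.164 points, and among those with 0.5 to 0.8 times as many calls in ago5 it was -2.60 ± 0.284 points. The most GC-rich class, where depth was most alike, differed by -2.90 points from 39.8% and the most AT-rich class by -1.81 points from 16.0%. Relative to the wt21 level the order was reversed, at -7.29 and -11.3%. Elements that overlap a gene, with a wt21 level of 13.9%, differed by -1.004 ± 0.280 points, and those that overlap none by -2.74 ± 0.162 points from 34.9%.

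Counted one by one, 2309 of 15687 transposable elements had a CHG level at least 10 points lower in ago5 and 1077 a level at least 10 points higher. Over all nuclear features tested in CHG, 5.76% were lower and 2.42% were higher by this rule. After the levels were centred on the median shift between the pools, on a logit scale, 1576 elements were lower and 1469 higher. A two-sided Fisher's exact test on the calls, with Benjamini-Hochberg adjustment over all features of the context (threshold 0.05), compares the 2 pools rather than the 2 genotypes. With that test added, CHG fell in 137 elements and rose in 8, against 0.491% of all features lower and 0.0362% higher. After centring, the test gave 74 lower and 9 higher elements. In transposable element genes it fell in 86 and rose in 2 of 3759, and in genes it fell in 31 and rose in 9 of 32202. The 137 elements were long, at a median of 1563 bp against 619 bp for all elements tested, and 62.0% were pericentromeric against 39.8%. They carried a median of 341 calls in ago5, against 11 over all elements, untested ones included. Their median difference was -14.7 points. Without the test, the 2309 lower elements had a median of 522 bp and 26 calls in ago5, and 46.8% were pericentromeric. The test favours elements with many calls, so the length of the 137 is partly set by it. Of these 137, 31 overlapped no feature of another class.

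The steepest CHG falls that passed the test were in elements of 171 to 830 bp, of which AT2TE17915 alone was pericentromeric. AT2TE17915, printed above, went from 100% of 15 calls in wt21 (Wilson 79.6 to 100%) to 38.9% of 18 calls in ago5 (20.3 to 61.4%; adjusted p = 0.014 by Fisher's exact test). Its stem-cell pools went the other way, from 11.1% of 9 calls to 41.7% of 12. AT1TE73160 went from 80% of 20 calls (58.4 to 91.9%) to 19.2% of 26 (8.51 to 37.9%; adjusted p = 0.0068 by Fisher's exact test), and from 63.0 to 40% in stem-cell nuclei. The ago9 and ago59 sperm pools read 63.2 and 57.1% at this element, between the other pools. AT5TE31800 and the transposable element gene AT5G25305 around it, which share calls, fell from 86% to 33.3% and from 83.3 to 34.6%. AT4TE05550 fell from 90.3 to 37.9% and AT1TE90305 from 68.8 to 18.2%, and their stem-cell levels differed by 9.61 and -2.04 points. The 3 largest rises, in AT1TE31410, AT2TE17280 and AT4TE37370, were of 60, 53.8 and 50 points on 10 to 30 calls per pool.

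CHG methylation also fell in several genes, although most gene bodies carry little of it. AT5G21125, an uncharacterized protein-coding gene on chromosome 5, fell from 40.6% of 128 calls in wt21 (32.5 to 49.3%) to 9.52% of 147 calls in ago5 (5.76 to 15.4%; adjusted p = 1.7e-06 by Fisher's exact test). The other mutant pools were as low, at 8.23% in ago9 and 3.33% in ago59 sperm, and stem-cell nuclei read 18.5% in wt21 and 2.98% in ago5. AT1G75945, also uncharacterized, fell from 67.2 to 36.4% in CHG and from 97.6 to 44.4% in CG, and its stem-cell pools differed by -33.1 and -37.0 points. In ago59 this gene read 3.98% CHG and 4.37% CG in sperm, the lowest of the sperm pools. Here all 3 mutant pools lay below wt21 in both contexts. MIR8175, a microRNA precursor in the pericentromere of chromosome 2, fell from 52.6% of 38 calls to 4.76% of 21, while ago9 and ago59 read 57.7 and 48.3%. LCR25, a member of a family of small secreted cysteine-rich proteins, fell from 45% to 13.3%. Its stem-cell pools did not follow, at 33.8% in wt21 and 34.8% in ago5. Among rises, the non-coding RNA gene AT2G06995 went from 2.16 to 25.7% in sperm and from 0 to 25% in stem-cell nuclei.

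Among transposable element genes, AT4G09255 fell from 80% to 30%, AT1G12935 from 93.5 to 48.4% and AT2G15150 from 78.0 to 37.5%. AT3G22955, on the arm of chromosome 3, fell in CHG from 41.0% of 61 calls (29.5 to 53.5%) to 1.03% of 97 (0.182 to 5.61%; adjusted p = 5e-08 by Fisher's exact test). The ago9 sperm pool kept a high CHG level at AT3G22955, 59.6%, and the ago59 pool was low at 9.46%.

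In the CG context the picture was one of single loci in both directions. Of 16589 transposable elements, 1013 were at least 10 points lower and 661 at least 10 points higher in ago5, where 2.57% of all nuclear features were lower and 1.75% were higher. With Fisher's exact test CG fell in 116 elements and rose in 84, against 0.586 and 0.487% of all features. It fell in 10 and rose in 5 transposable element genes, and fell in 176 and rose in 157 of 32185 genes. The median change was -31.7 points in the elements that fell and 32.4 points in those that rose. These elements had a median of 49 and 44.5 calls in ago5, and with few calls only wide gaps pass the test. By the 10-point rule alone the medians were -16.7 and 15.8 points. In genes that passed the test they were -13.0 and 15.5 points. The CG-changed elements lay mostly in the arms. Of the 116 that fell 17.2% were pericentromeric, and of the 84 that rose 17.9%, against 39.6% of those tested. Pericentromeric elements averaged 89.5% CG in wt21 and arm elements 48.2%, so a rise of 10 points had less room in pericentromeres.

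The small mean CG difference of transposable elements also came from particular levels. Elements between 20 and 40% CG in wt21 stem-cell nuclei were -4.07 ± 0.834 points different in sperm, and those between 40 and 60% -3.74 ± 0.763 points. Elements above 80% differed by -0.0912 ± 0.114 points and those below 5% by 0.368 ± 0.198 points. In the 20 to 40% class 33.1% of the 686 elements were at least 10 points lower and 15.6% at least 10 points higher. By length, arm elements of 1 to 2 kb differed by -1.69 ± 0.394 points and those of 2 to 4 kb by -1.97 ± 0.513 points. The most AT-rich class differed by -1.45 points, where the ago5 pool held 73.3% as many CG calls as wt21. At similar depth in both pools the CG difference of all elements was -0.305 ± 0.125 points.

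The named CG losses were close to complete. AT2TE42995, in exonic sequence outside the coding part of AT2G23610, went from 95.5% of 44 calls in wt21 sperm (84.9 to 98.7%) to 3.03% of 33 calls in ago5 (0.537 to 15.3%; adjusted p = 4.5e-15 by Fisher's exact test). Stem-cell nuclei read 56.8% in wt21 and 4.35% in ago5. The ago9 and ago59 sperm pools read 57.9 and 93.3%, so ago5 was the lowest of the sperm pools here. At the single CG site of AT3TE23210 all 18 calls were methylated in wt21 sperm, as were all calls in ago9 and ago59, and 16.7% of 30 were in ago5 (7.34 to 33.6%; adjusted p = 9.1e-07 by Fisher's exact test). Its stem-cell pools read 100% of 5 calls in wt21 and 0 of 8 in ago5. AT5TE57585 fell from 91.7 to 11.8% in sperm and read 77.8 and 10% in stem-cell nuclei. AT1TE41180 went from 92.3 to 0%, with ago9 at 0 and ago59 at 12.5%. For AT1TE40260, which fell from 100 to 10% in sperm, the stem-cell pools were alike at 8.33 and 9.09%.

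The named CG gains were as steep. AT1TE40005 went from 0 of 50 calls in wt21 sperm (up to 7.13%) to 100% of 24 calls in ago5 (86.2 to 100%; adjusted p = 1.02e-16 by Fisher's exact test). AT1TE32815 went from 0 of 21 calls to 89.3% of 28. In stem-cell nuclei they rose from 0 to 60% and from 2.63 to 79.5%. Both were also high in ago59 sperm, at 91.7 and 95.8%, and low in ago9, at 0 and 28.6%. AT5TE20310 rose from 4.35 to 91.7% and was at 89.5 and 100% in ago9 and ago59, so that wt21 was the one low sperm pool.

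**Figure D4:**
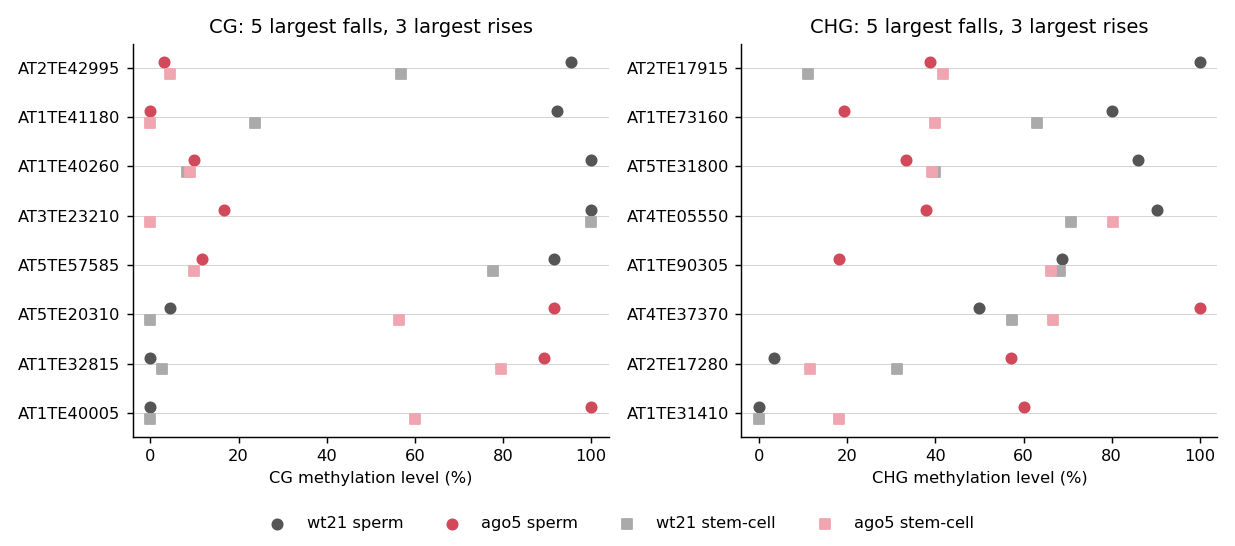
Methylation level in percent (x axis) of the transposable elements with the 5 largest falls and 3 largest rises that passed Fisher's exact test in CG (left) and CHG (right), in sperm (circles) and stem-cell (squares) pools of wt21 and ago5. At AT1TE32815 the ago5 pools read 89.3 and 79.5% CG and the wt21 pools 0 and 2.63%, whereas at AT1TE90305 CHG read 68.3 and 66.2% in the stem-cell pools beside 68.8 and 18.2% in sperm.

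Genes with changed CG methylation included small non-coding loci with few sites. The small nucleolar RNA gene AT2G09815, in a non-exonic part of AT2G47170, went from 100% of 13 calls in wt21 to 0 of 14 in ago5. The 2 proline tRNA genes AT1G28750 and AT2G33960 rose from 0 to 100% and from 0 to 78.6%, and in stem-cell nuclei from 0 to 58.3% and from 0 to 100%. Copies of tRNA and snoRNA genes share sequence, so calls at these loci are uncertain. Among longer loci, AT2G25500 fell from 85.4% of 41 calls (71.6 to 93.1%) to 12.8% of 47 (5.98 to 25.2%; adjusted p = 1.4e-09 by Fisher's exact test). It read 71.2 and 13.0% in stem-cell nuclei. The non-coding RNA gene AT5G03405 rose from 3.13 to 72.2%. The transposable element gene AT3G22955, described above for CHG, fell in CG from 92.7 to 38.5%. AT5G35935, with 1341 calls in wt21 and 1510 in ago5, fell from 96.9 to 76.0% in sperm and read 82.9 and 68.8% in stem-cell nuclei. SADHU5-1 (AT4G01525), of the Sadhu family of non-coding retrotransposons, rose from 9.01 to 29.9% in sperm and read 1.74 and 4.84% in stem-cell nuclei.

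The stem-cell pools give a look at these loci in libraries that the sperm comparison did not use. Of the 113 elements with a CG fall and stem-cell data, 46 were at least 10 points lower and 10 at least 10 points higher in ago5 stem-cell nuclei. Over all elements 10.9% were that much lower and 9.98% that much higher there. Of the 78 with a CG rise, 47 were at least 10 points higher in stem-cell nuclei and 2 lower. Genes behaved alike, since 45 of 175 with a fall were lower and 2 higher, and 65 of 157 with a rise were higher and 0 lower. Over all genes these shares were 0.96% lower and 0.95% higher. The mean stem-cell difference was -10.5 ± 1.42 points in the elements that fell and 19.2 ± 1.63 points in those that rose. Over all elements at least 10 points lower or higher in sperm, without Fisher's test, it was -3.39 and 4.68 points. Of the 957 lower ones with stem-cell data 269 were lower and 152 higher by 10 points in stem-cell nuclei. As each genotype is 1 pool per cell type, a difference tied to the mutation and one tied to the plants or seed stock that were grown cannot be told apart.

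For CHG the share of elements also lower in stem-cell nuclei was like that over all elements, but the 2 sets differ in depth. Of 136 elements with a CHG fall in sperm, 16 (11.8%) were at least 10 points lower in stem-cell nuclei and 4 (2.94%) higher. Over all elements 11.8% were lower and 9.81% higher by 10 points. Those are mostly shorter elements with fewer calls, at a median of 11 CHG calls in ago5 sperm against 341 in the elements that fell. With few calls, counting error alone more often gives a gap of 10 points, so these shares are no matched background. The mean stem-cell difference was -2.34 ± 0.777 points in the 136 elements and -0.697 ± 0.128 points over all elements. For CHH, 56 of 546 elements that fell were lower in stem-cell nuclei and 55 were higher, and 59 of 418 that rose were higher and 54 lower. Over all elements these shares were 4.84 and 4.55%. Elements changed in CHH in sperm thus moved both ways in about equal number in stem-cell nuclei.

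**Figure D5:**
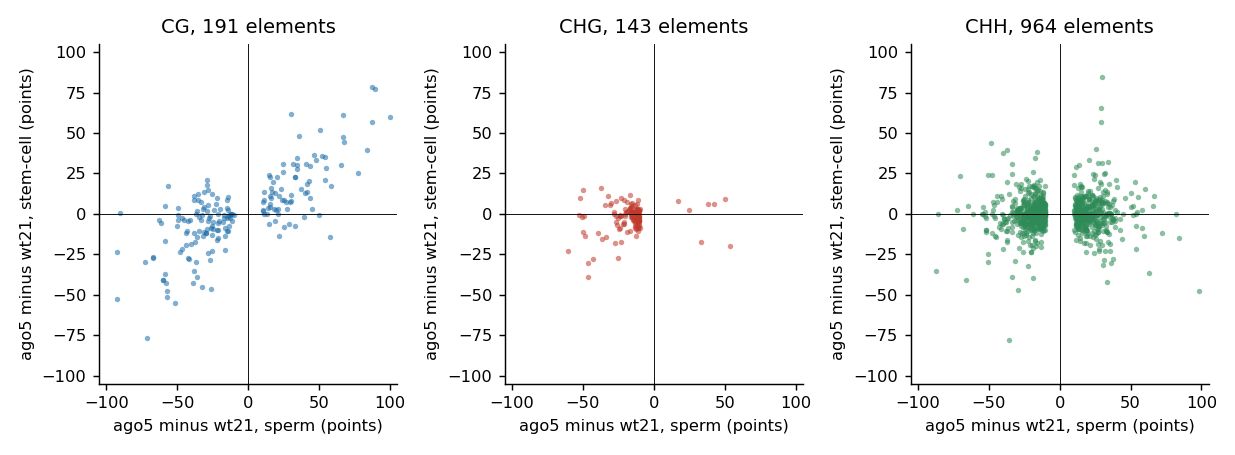
Difference in methylation level, ago5 minus wt21 in percentage points, in sperm (x axis) and stem-cell nuclei (y axis) of the transposable elements that passed Fisher's exact test and 10 points in sperm; each point is 1 element with at least 10 calls in all pools. In CG the elements that rose in sperm had a mean stem-cell difference of 19.2 points and those that fell -10.5 points, in CHH the points lie on both sides of 0.

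The share of genes with changed CG methylation varied along the chromosomes, from 0 to 12.7% in single windows of 1 Mb. Over all windows, 1.74% of 32185 genes differed by at least 10 points. Between 10 and 13 Mb on chromosome 1, 48 of 798 genes did (6.02%), 22 lower and 26 higher, and 5.92% did in stem-cell nuclei. Between 9 and 17 Mb on chromosome 2 the shares were 3.28% of 2471 genes in sperm and 2.22% in stem-cell nuclei. Both regions were chosen after the values were seen. AGO5 itself lies on chromosome 2 at 11871378 to 11876989. Of the genes 1 to 2 Mb from it, 3.71% differed by 10 points, and their mean CG difference was -0.740 ± 0.170 points from 14.2%. This distance class has the largest mean of those near AGO5 and is named for that. The means were -0.160 points within 0.5 Mb (2.36% changed), -0.352 at 0.5 to 1 Mb (1.79%) and -0.219 at 2 to 4 Mb (3.48%). Farther off they were -0.372 at 4 to 8 Mb (1.71%) and -0.391 at 8 to 12 Mb (3.03%). On the other chromosomes the mean was -0.155 points (1.58%).

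In CHH, single elements moved both ways and the small mean difference went with depth. At least 10 points lower were 1434 of 26846 transposable elements and at least 10 points higher 1014, against 2.34 and 1.66% of all features. After centring on the median shift the numbers were 1078 lower and 1228 higher elements. With Fisher's exact test CHH fell in 552 and rose in 424 elements, against 0.924 and 0.715% of all features. It fell in 11 and rose in 8 transposable element genes, and fell in 28 and rose in 27 genes. The elements that fell had a median of 0.917 calls per cytosine in ago5, and a read that crosses many CHH sites adds many calls, so that these adjusted p-values rest on few molecules.

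The depth of the ago5 pool relative to wt21 moved with the CHH difference. Where ago5 held fewer than 0.5 times the CHH calls of wt21 the mean difference was -1.90 ± 0.199 points, at 0.5 to 0.8 times it was -0.834 ± 0.0856, where the smaller pool held at least 0.8 times the calls of the larger it was -0.199 ± 0.0614, and where ago5 was the deeper by more than that it was 0.574 ± 0.232 points. By base composition the most AT-rich class differed by -0.786 ± 0.142 points and the most GC-rich by -0.0907 ± 0.0770. In the AT-rich class alone, elements of similar depth in both pools differed by 0.262 ± 0.253 points. Arm elements of 1 to 2 kb and 2 to 4 kb differed by -1.34 ± 0.138 and -1.47 ± 0.194 points. The part of depth in these CHH differences was not tested.

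The largest CHH changes rested on few calls per cytosine. AT4TE16580, in the pericentromere of chromosome 4, read 0 of 39 calls in wt21 sperm (up to 8.97%) and 98.3% of 121 in ago5 (94.2 to 99.5%; adjusted p = 6.2e-31 by Fisher's exact test). In stem-cell nuclei it read 87.2% in wt21 and 39.3% in ago5, the reverse order. AT2TE18610 went from 87.5% of 16 calls to 0 of 32 in sperm and from 35.6 to 0% in stem-cell nuclei. AT1TE53850 fell from 75.8 to 3.64% in sperm, with stem-cell levels of 6.41 and 9.09%. The transposable element gene AT3G43863 had more calls, 2425 in wt21 and 2339 in ago5, and rose from 49.2 to 64.6%, with 60.8% in ago9. Among microRNA precursors MIR5645a fell from 40.7 to 6.52% in sperm and read 19.8 and 13.0% in stem-cell nuclei. MIR8166 fell from 33.3% of 39 calls to 0 of 24 in sperm. Its stem-cell pools went the other way, from 23.3% of 30 calls in wt21 to 72.7% of 11 in ago5. The gene AT2G10020 rose from 22.1 to 57.6%, and its stem-cell pools differed by 23.3 points.

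Contexts moved together in part of the elements. In the 137 elements with a CHG fall the mean CHH level was 4.97% in wt21 and 3.80% in ago5 (-1.17 ± 0.249 points) and the mean CG level 95.03 and 93.03% (-2.01 ± 0.635 points). In the elements with a CG fall the CHG level differed by -6.50 ± 1.57 points from 16.8%, and in those with a CG rise by 4.16 ± 1.70 points from 10.7%. In 283 elements with a CHH fall and CHG calls, CHG went from 39.5 to 31.3% on average. Other pairs of contexts lay near 0, as CHG differed by 0.894 ± 1.65 points in 207 elements with a CHH rise, and CHH by -0.0632 ± 0.469 points in elements with a CG rise. Over all elements CHG differed by -2.39 points and CHH by -0.575 points, so both values lay above the means of all elements. These contexts were read from the same libraries and often the same molecules.

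AGO5 itself carried little methylation. Its CG level was 2.37% of 2064 calls in wt21 (1.80 to 3.12%) and 4.14% of 2077 calls in ago5 (3.37 to 5.09%; adjusted p = 0.037 by Fisher's exact test). Its CHG level rose from 0.799% (0.542 to 1.18%) to 2.29% (1.82 to 2.89%, adjusted p = 0.00035 by Fisher's exact test), and ago9 and ago59 sperm read 0.913 and 1.24%. The wt21 value is below the chloroplast CHH reading of 1.37%, and what part of such low levels is unconverted cytosines was not tested. In stem-cell nuclei AGO5 read 0.163% CHG in wt21 and 1.02% in ago5, while its CG level was 2.31 and 0.946%. AGO9 read 3.32 and 2.51% CG and 0.614 and 0.789% CHG in wt21 and ago5 sperm.

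Lists covered the methylation machinery, pollen genes, known silenced loci and mobile elements. Of 80 genes in 9 lists, chosen with earlier results of these data known, 1 of 79 with enough calls differed by 10 points in CG, 1 of 77 in CHG and 0 of 79 in CHH. Over all genes these shares were 1.74, 1.28 and 0.264%, so in CG and CHH the lists were near the background. The CHG member was AtMu1, from the list of 9 mobile elements, which is set beside transposable element genes. Of those 9.76% were lower and 1.49% higher by 10 points in CHG. SUVH5 (AT2G35160), a histone H3 lysine methyltransferase that works with CMT3, fell in CG from 60.2% of 1519 calls (57.7 to 62.6%) to 49.5% of 1471 (46.9 to 52.0%; adjusted p = 9.6e-07 by Fisher's exact test). The ago9 and ago59 sperm pools read 55.1 and 59.3% at SUVH5, and the stem-cell pools 47.3% in wt21 and 40.5% in ago5. AtMu1 (AT4G08680), a Mutator-like element, read 52.2% CHG in wt21 (42.0 to 62.2%) and 62.9% in ago5 (53.3 to 71.5%), and did not pass Fisher's exact test.

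Without the 10-point rule, 9 list members passed Fisher's exact test in CG, 3 in CHG and 5 in CHH, where 6.49, 0.351 and 4.91% of all genes did. Of the 3 in CHG, 1 was a mobile element, for which the share over genes is no background. Among 10 argonautes AGO6, which acts in small RNA-directed methylation, rose in CG from 13.0 to 16.9% and differed by 4.93 points in stem-cell nuclei. Of the 4 DNA demethylase genes, ROS1 rose from 23.8 to 29.1% and DML3 from 0.836 to 3.53% in CG, and their stem-cell differences were -1.40 and 0.397 points. CLSY3, which helps bring RNA polymerase IV to its targets, rose from 8.70 to 12.7%. The disease resistance gene RPP7 fell in CG from 57.9 to 53.0%, in CHG from 41.7 to 38.03% and in CHH from 3.30 to 2.84%, and its stem-cell differences were -5.89, -2.73 and -0.662 points. HDG9, an imprinted homeobox gene, fell in CG from 9.87 to 5.87%. In CHH, MET1 read 1.17% in wt21 and 0.798% in ago5, CMT1 1.60 and 1.05%, and SUVH6 0.944 and 1.70%. Chloroplast features read 1.37% in wt21 and 1.34% in ago5, and mitochondrial features 2.32 and 2.21%. Both MET1 values, CMT1 in ago5 and SUVH6 in wt21 lay below the chloroplast readings, and CMT1 in wt21 and SUVH6 in ago5 above them. The chloroplast readings are thus no lower bound for these genes. What part of the CHH levels of these 3 genes is unconverted cytosines was not tested. SDC, an F-box gene silenced by methylation of its promoter repeats, fell in CHH from 2.97 to 0.694% (adjusted p = 1.8e-10 by Fisher's exact test), and its stem-cell difference was -0.442 points. These levels cover the annotated gene, and the promoter repeats were not measured apart. The ago9 and ago59 sperm pools read 3.01 and 2.51% CHH at SDC.

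Of 8 sperm-expressed genes, GEX1 passed the test, falling in CG from 11.2 to 6.72%, and over the 8 the CG differences ranged from -4.44 to 3.09 points. For the 4 genes of the vegetative cell, the pollen cell that grows the tube, the CG differences ranged from -2.41 to 2.08 points and 0 passed the test, beside 6.49% of all genes. Of the mobile elements CACTA1 fell in CHG from 60.8 to 55.8%. The 6 members of that list with enough CHG calls had a median difference of -3.95 points, beside -3.67 points over all transposable element genes.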

How the data were processed

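Bisulfite-converted DNA was sequenced from sorted nuclei. Per the labels' protocols, 1 to 5 ng of DNA went into each Pico Methyl-Seq library; the labels' molecule field says RNA, which the protocol contradicts. The submitters' processing notes name Trim Galore, Bismark, bedtools 2.30.0 and build TAIR10; the order of steps and how replicates were combined are not given in the sources used here. Per the file headers, the authors deposited counts of methylated and total cytosine calls per feature. Levels were computed from these counts in 48 columns, and 24 further columns of levels were not used.

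Of 37803 nuclear features matched by locus tag to RefSeq TAIR10.1, 37799 have the same start and end, and 0 features without a CG, CHG or CHH site in that sequence have calls. A feature was tested with at least 10 calls in both pools and counted as changed at 10 points or more. Means are over features; the half-widths add the binomial variances of features, with 1 call added on each side. A feature counts as pericentromeric when its 500 kb bin is covered to at least 50% by transposable elements. Such bins need not adjoin, and the pericentromere centre is the midpoint of the span between the outermost of them. The design planned for a column per replicate could not be used, so no test covers replicates. Named were AGO5 and AGO9, list members called, and per context and class the 5 largest falls and 3 largest rises that passed Fisher's exact test; the text gives a choice of these. Members and lists were chosen with earlier results of these data known. No family names of transposons were used. Scripts used Python 3.11.15, numpy 2.4.6, scipy 1.17.1 and pandas 2.3.3, and were tested on simulated data. The alternatives tried are given in the closing section.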

Additional observations from a re-analysis of the deposited data

How the results depend on the processing

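No paired analysis was possible because each group and context has 1 deposited column, and leaving out a replicate was not possible for the same reason. Over 47 results, 149 of 239 alternative values kept their direction and size, and 2 reversed. The comparison with elements of similar depth was chosen after seeing the data. Differences below are in points.

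With medians in place of means, the difference of transposable elements was 0 in CG, -1.15 in CHG and -0.117 in CHH, in CHG of the arms 0, in CHH of the most AT-rich class 0 and of the most GC-rich -0.176, and in CG of genes 1 to 2 Mb from AGO5 -0.200. Over calls these were -0.667, -3.35 and -0.403, with -3.73 in pericentromeric CHG, -2.88 in CHG of the arms, -2.47 in CG at 20 to 40% in stem-cell nuclei, and -1.08 and -0.254 in the most AT-rich and GC-rich classes. At similar depth they were -0.305 in CG and -0.199 in CHH, with -1.40 in CHG of the arms, -3.10 in CG at 20 to 40%, and a reversal to 0.262 in CHH of the most AT-rich class. Without elements that overlap another class, CHG read -2.17 in all elements, -3.02 in pericentromeres and -3.60 at 40 to 60% in stem-cell nuclei, CHH -0.705, and CHH of the most GC-rich class reversed to 0.0288. A minimum of 20 calls gave -2.54 in CHG, and one of 5 calls -3.23 in pericentromeric CHG. The cause of the reversals was not tested.

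At 5 calls, CG was lower in 1580 and higher in 1138, and CHG higher in 1870. At 20 calls, CG was lower in 553 and higher in 314, and CHG lower in 1386 and higher in 505, with 5 of these higher by Fisher's exact test. At 20 points, CG was lower in 373 and higher in 227, CHG in 731 and 329, and CHH in 419 and 351; with Fisher's exact test CHG fell in 43, and CHH fell in 222 and rose in 221. At an adjusted p of 0.01, CG fell in 67 and rose in 46, and CHG fell in 67 and rose in 1. Without overlaps, CG fell in 68 and rose in 51, and CHG was lower in 1445 and fell in 31. After centring on the median shift, CHG fell in 74.

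For elements at least 10 points lower in CHG the CHH difference was -1.84, and it was -1.17 with Fisher's exact test and -1.65 at 20 calls. The stem-cell CG difference was -3.39 in elements lower in sperm and 4.68 in those higher, and -10.5 and 19.2 with Fisher's exact test. For CHG-lower elements it was -1.60 and -2.34, and for CHH-higher elements 0.194 and 0.574.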

Other observations

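Pseudogenes held CG methylation at 36.9% in both sperm pools, with a difference of 0.00313 ± 0.210 points, while their CHG level differed by -1.30 points. In pericentromeric pseudogenes the CHG difference was -2.90 ± 0.839 points from 36.7%, and in those of the arms -0.821 ± 0.328 points from 11.2%. Of 889 pseudogenes CG fell in 11 and rose in 14 by Fisher's exact test and 10 points, where 0.586% of all nuclear features fell and 0.487% rose.

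Gene bodies at 20 to 40% CG in wt21 stem-cell nuclei differed by -0.653 ± 0.0765 points in sperm, and those at 0 to 5% by 0.0532 ± 0.0284 points. By chromosome the mean CG difference of genes ran from -0.106 ± 0.0559 points on chromosome 3 to -0.369 ± 0.0657 on chromosome 2, which carries AGO5.

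The table has a feature of 729 bp named mCherry, and it held 0 calls over its 24 columns of total calls.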
